A study of Mus musculus with 4 samples.

Results

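Angiogenic factor genes of cardiac neutrophils were examined in RNA-Seq libraries of the mouse heart after ischemia. The genes are *Prok2*, *Chil1*, *Vegfa*, *Vegfb*, *Pgf*, *Hbegf* and *Thbs1*, which encode secreted factors, and *Acvrl1* and *Notch1*, which encode receptors. They are 9 of the 25655 genes in the files, and all 9 were found there by symbol. The members were chosen by name with values of these same libraries in view, *Prok2* and *Chil1* among them because the study names them from the contrast of genotypes in SiglecF lo neutrophils. Their values are therefore given as a description, and no test was made on them.

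The study asked how CD300a, an inhibitory receptor of myeloid cells, shapes injury and repair after myocardial ischemia and reperfusion (MI/R). Neutrophils were sorted from hearts as CD45.2+CD11b+Ly6G+ cells and split by surface SiglecF. The 4 groups were SiglecF lo and SiglecF hi neutrophils of WT mice and SiglecF lo and SiglecF hi neutrophils of *Cd300a-/-* mice, all taken on day 3 after MI/R from adult male mice on a C57BL/6 background. Each group is 1 library made from 8 pooled hearts, so the spread between mice cannot be seen and no P value between conditions is given. The *Cd300a-/-* mice lack the gene in every cell, not only in neutrophils, and the labels call the subsets SiglecF-negative and SiglecF-positive.

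Gene counts per library were 9631901 for WT and 10988619 for *Cd300a-/-* SiglecF lo neutrophils, and 19278243 for WT and 17632989 for *Cd300a-/-* SiglecF hi neutrophils. Levels are given in TPM, the share of a transcript in its library corrected for gene length, so that levels of different genes can be compared. Differences are log2((TPM + 1) ratio), which understates the difference of low genes, and a gene is called past 0.5 in either direction. Only the 6523 genes whose TPM averaged over 10 across libraries were counted. Intervals in parentheses are 95% counting intervals. They hold counting error alone, since reads that carry no molecular identifier do not stand for independent molecules, and pooled mice give no spread. The 10 genes with the highest TPM took 22.8% and 26.7% of all TPM in the WT and *Cd300a-/-* SiglecF lo libraries and 12.3% and 11.8% in the WT and *Cd300a-/-* SiglecF hi libraries. The median log2 ratio of all genes counted between genotypes was -0.02 for the SiglecF lo and 0.04 for the SiglecF hi subset, but 0.53 in WT and 0.61 in *Cd300a-/-* mice when the SiglecF hi subset was set against the SiglecF lo subset. Subset ratios are therefore also given centred, that is with this median subtracted.

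The labels were checked on *Cd300a* and on the genes of the sorting markers. *Cd300a* had 3024 and 6640 counts in the WT SiglecF lo and SiglecF hi libraries and 28 and 27 counts in the *Cd300a-/-* libraries, which fits the labelled genotypes. *Siglecf* was at 11.3 and 15.3 TPM in the WT and *Cd300a-/-* SiglecF lo libraries and at 354 and 405 TPM in the SiglecF hi libraries. *Itgam*, which encodes CD11b, ranged from 337 to 550 TPM, and *Ptprc*, which encodes CD45, from 608 to 710 TPM over the 4 libraries. *Ly6g* was high in the SiglecF lo libraries, where WT had 330.4 TPM and *Cd300a-/-* had 889 TPM, and low in the SiglecF hi libraries, at 11.1 and 41.9 TPM. The RNA of the sorting marker Ly6G was thus low in the SiglecF hi libraries although both subsets were gated on the protein. The most abundant RNA was *S100a9*, a neutrophil alarmin gene, in both SiglecF lo libraries, and *Ftl1*, which encodes ferritin light chain, in both SiglecF hi libraries.

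As background, vessel growth is driven by secreted factors that act on endothelial cells and is held back by others. Vascular endothelial growth factors bind receptor tyrosine kinases and neuropilins, prokineticins bind G protein–coupled receptors, and thrombospondin-1 inhibits vessel growth through CD36 and CD47. ALK1, encoded by *Acvrl1*, and Notch receptors control vessel maturation and sprouting in endothelium, and neutrophils bring growth factors and proteases into the ischemic heart.

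The levels of the 9 genes spanned a wide range within each library. *Thbs1* was the highest of the 9 in all 4 libraries and took 62.4% (WT) and 55.0% (*Cd300a-/-*) of their summed TPM in the SiglecF lo subset, and 79.1% (WT) and 77.9% (*Cd300a-/-*) in the SiglecF hi subset. *Chil1* came after it in both SiglecF lo libraries, and *Vegfa* came after it in both SiglecF hi libraries. *Pgf* was the lowest of the 9 in all libraries. The summed TPM of the 9 genes was 1257 and 2150.5 in WT and *Cd300a-/-* SiglecF lo neutrophils and 1118 and 1275 in WT and *Cd300a-/-* SiglecF hi neutrophils, so that the *Cd300a-/-* SiglecF lo library stood above the others. Of the 9 genes, 8 passed the mean TPM limit. *Hbegf* and *Vegfb* lay just inside it, at a mean of 10.9 and 11.6 TPM, and *Pgf* lay outside, at a mean of 2.50 TPM. *Vegfb* passed only through the SiglecF hi libraries, so its difference between subsets was in part set by the limit. *Hbegf* passed only through the *Cd300a-/-* SiglecF hi library, its highest, so its genotype difference in the SiglecF hi subset was also in part set by the limit.

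**Figure D1:**
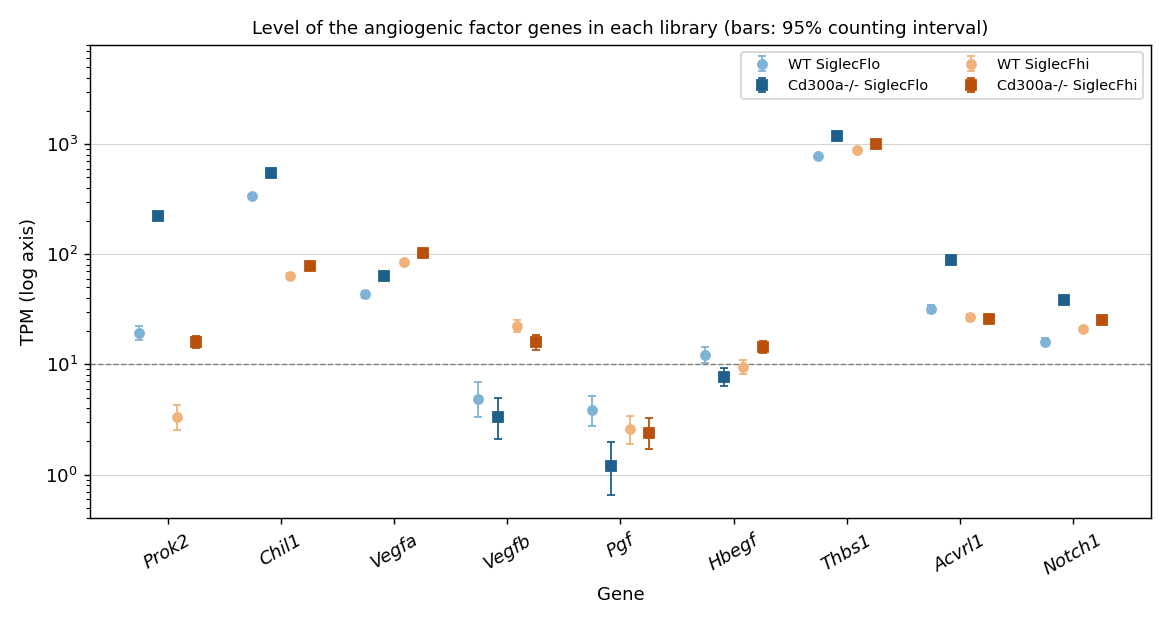
TPM of the 9 genes, on a log axis, in each of the 4 libraries, with bars for the 95% counting interval and a dashed line at 10 TPM. *Prok2* reaches 222 TPM in the *Cd300a-/-* SiglecF lo library against 3.33 TPM in the WT SiglecF hi library, while *Thbs1* lies between 785 and 1183 TPM in all 4.

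*Prok2* encodes prokineticin-2, a secreted peptide that myeloid cells release and that acts on endothelium. It lies on the minus strand of chromosome 6 between positions 99688260 and 99703353 (ENSMUSG00000030069, GRCm39). Its level was 19.2 TPM (16.6 to 22.1) in WT and 222 TPM (213 to 231) in *Cd300a-/-* SiglecF lo neutrophils, from 189 and 2411 counts. In SiglecF hi neutrophils it was at 3.33 TPM (2.51 to 4.32) in WT and 16.1 TPM (14.2 to 18.3) in *Cd300a-/-*, from 56 and 243 counts. The *Cd300a-/-* SiglecF lo library was thus the highest and the WT SiglecF hi library the lowest, while the intervals of WT SiglecF lo and *Cd300a-/-* SiglecF hi neutrophils overlapped. The highest level was 66.7 times the lowest, a range on the log2 scale wider than that of 99.9% of the genes counted. In rank of TPM over all genes, *Prok2* stood at 603 in *Cd300a-/-* SiglecF lo and at 3976 in WT SiglecF lo neutrophils. It stood at 5689 in *Cd300a-/-* and at 9653 in WT SiglecF hi neutrophils.

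The genotype ratio of *Prok2* was 3.46 in SiglecF lo neutrophils, where only 4 of the 6523 genes had a higher ratio, and 1.99 in SiglecF hi neutrophils, where 5 genes had a higher one. Expressed in TPM, *Cd300a-/-* was 11.6 times WT in SiglecF lo and 4.85 times WT in SiglecF hi neutrophils. *Prok2* was therefore higher in *Cd300a-/-* than in WT neutrophils of both subsets. These comparisons share no library, but the subsets of a genotype may come from the same pooled hearts. The difference of the ratios, SiglecF hi minus SiglecF lo, was -1.48 (-1.87 to -1.09). Between subsets *Prok2* was lower in SiglecF hi neutrophils, with a ratio of -2.22 in WT (centred -2.75) and -3.70 in *Cd300a-/-* (centred -4.31). In bulk RNA, fewer cells that express a gene and less RNA of it per cell cannot be told apart. Of the other prokineticin genes, the ligand gene *Prok1* was at 0 counts in both SiglecF lo libraries and the *Cd300a-/-* SiglecF hi library and had 5 counts in the WT SiglecF hi library. The receptor gene *Prokr2* was at 0 counts in all 4 libraries, and *Prokr1* had 31 and 2 counts in the WT and *Cd300a-/-* SiglecF hi libraries and 0 in the SiglecF lo libraries. Of the family, the ligand *Prok2* was thus the only gene above 1 TPM in any library.

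The genes whose profile over the 4 libraries was nearest to that of *Prok2* were sought by the smallest root mean square (RMS) difference of log2(TPM + 1), each gene centred on its own mean. They were *Cd177*, *Ifitm6* and *Ggt1*, with RMS differences of 0.40, 0.45 and 0.57. *Cd177*, which encodes a neutrophil surface glycoprotein, was at 143 and 741 TPM in WT and *Cd300a-/-* SiglecF lo neutrophils and at 21.0 and 75.9 TPM in WT and *Cd300a-/-* SiglecF hi neutrophils. *Cd177* was picked for its near profile, so nothing is read from its order, which was that of *Prok2* with a smaller range. The list of 9 genes of neutrophil granules that holds *Cd177* moved in the same direction between genotypes. Its median ratio was 1.36 in SiglecF lo neutrophils, with 6 of 9 past 0.5 higher in *Cd300a-/-*, where 16.4% of all genes were, and 1.35 in SiglecF hi neutrophils, with 7 of 9 higher, where 3.31% of all genes were. In neither subset was a gene of the list past 0.5 lower. Of all genes, 19.9% were past 0.5 lower in the SiglecF lo and 3.46% in the SiglecF hi comparison. The summed TPM of the 9 granule genes was 5668 and 13396 in WT and *Cd300a-/-* SiglecF lo neutrophils. In SiglecF hi neutrophils it was 1192 and 2053 for WT and *Cd300a-/-*. The most abundant of them was *Lcn2* in 3 libraries and *Chil3* in WT SiglecF hi neutrophils, and none was at 0 in any library. *Ly6g* was also higher in *Cd300a-/-* neutrophils, with ratios of 1.43 for the SiglecF lo and 1.82 for the SiglecF hi subset. The part of granule gene expression in the values of *Prok2* and *Chil1* was not tested.

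The sequence upstream of *Prok2* is shown because this gene had the widest range of the 9. It is the 250 bases before the transcription start in RefSeq, on the minus strand of chromosome 6 from 99726393 to 99726642 in GRCm38.p6, which is another build than that of the gene positions. Capitals mark matches of the motifs searched for on both strands, namely TTCNNNGAA (bound by STAT factors), ACGTG (the core of the hypoxia response element) and TGACTCA (bound by AP-1). The window holds CACGTG, where ACGTG on the plus strand and its reverse complement CACGT overlap, 135 bases before the start, and TGAGTCA, the reverse complement of the AP-1 motif, 67 bases before the start.
Prok2: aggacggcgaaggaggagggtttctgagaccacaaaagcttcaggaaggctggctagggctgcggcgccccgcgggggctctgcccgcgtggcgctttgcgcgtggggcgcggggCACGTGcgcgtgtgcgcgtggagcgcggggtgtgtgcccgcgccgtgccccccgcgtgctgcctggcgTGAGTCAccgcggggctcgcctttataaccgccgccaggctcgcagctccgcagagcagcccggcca

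Promoter entries, which run from 250 bases before to 50 bases after the start, were matched by symbol for 6 of the 9 genes, with 8 promoters in all. Of all 32851 mouse promoters of this length, 8.30% hold TTCNNNGAA, 19.6% hold ACGTG and 5.20% hold TGACTCA on either strand. None of the 8 promoters holds TTCNNNGAA. Of these genes, ACGTG is held by *Prok2* and by 1 of the 2 promoters of *Vegfa*, and TGACTCA by *Prok2* alone. The *Vegfa* entry with the match is the downstream one, from 46025114 to 46025413 on chromosome 17 in GRCm38.p6. The upstream entry, from 46032328 to 46032627, holds no ACGTG. A match describes letters in a window and is no sign of binding.

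*Chil1* encodes a chitinase-like glycoprotein of neutrophil granules, known as YKL-40 in humans, that promotes endothelial migration. It is on the plus strand of chromosome 1 between 134109914 and 134117919 (ENSMUSG00000064246). Its level was 341 TPM (329.9 to 351) in WT and 543 TPM (529.8 to 556) in *Cd300a-/-* SiglecF lo neutrophils. It was at 63.4 TPM (59.9 to 67.1) in WT and 79.0 TPM (74.9 to 83.3) in *Cd300a-/-* SiglecF hi neutrophils. All 4 intervals were separate, with both SiglecF lo libraries far above both SiglecF hi libraries and *Cd300a-/-* above WT in each subset. The genotype ratio was 0.67 for the SiglecF lo and 0.31 for the SiglecF hi subset, and their difference, SiglecF hi minus SiglecF lo, was -0.36 (-0.48 to -0.23). The subset ratio was much larger, at -2.41 in WT (centred -2.93) and -2.76 in *Cd300a-/-* (centred -3.38). *Chil1* and *Prok2* were therefore both SiglecF lo genes, but *Chil1* was 17.7 times the TPM of *Prok2* in WT SiglecF lo neutrophils and 2.45 times in *Cd300a-/-* SiglecF lo neutrophils. Among SiglecF hi neutrophils it was 19.0 times *Prok2* in WT and 4.90 times in *Cd300a-/-*.

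The genes nearest to *Chil1* in profile were *S100a8*, *9830107B12Rik* and *Pglyrp1*, with RMS differences of 0.09, 0.13 and 0.15. *S100a8*, a calcium-binding alarmin gene, was at 61914 and 83596 TPM in WT and *Cd300a-/-* SiglecF lo neutrophils and at 10370.0 and 12449 TPM in SiglecF hi neutrophils. Since *S100a8* was picked for its near profile, nothing is read from its order, which was that of *Chil1*. Among the 9 chitinase-like and chitinase genes sought, *Chil1*, *Chil3* and *Ctbs* passed the mean TPM limit. *Chil3*, another chitinase-like gene of myeloid cells, was at 625 and 623 TPM in WT and *Cd300a-/-* SiglecF lo neutrophils and at 566 and 522 TPM in SiglecF hi neutrophils. The subset ratio of *Chil3* was -0.14 in WT and -0.26 in *Cd300a-/-* as computed, but past 0.5 lower in SiglecF hi neutrophils when centred, at -0.67 and -0.87. *Chil3* is a close copy of *Chil4*, for which the counting of shared reads is not given in the sources used here. The ratio of *Chil3* to *Chil1* was 1.83 and 1.15 in WT and *Cd300a-/-* SiglecF lo neutrophils and 8.92 and 6.60 in SiglecF hi neutrophils.

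The VEGF ligand genes *Vegfa*, *Vegfb* and *Pgf* followed other patterns than *Prok2* and *Chil1*. *Vegfa* encodes the main ligand of VEGFR2 in vessel sprouting and is on the minus strand of chromosome 17 between 46327919 and 46343295 (ENSMUSG00000023951). Its level was 43.1 TPM (40.2 to 46.3) in WT and 63.4 TPM (60.0 to 67.0) in *Cd300a-/-* SiglecF lo neutrophils. It was at 84.8 TPM (81.6 to 88.2) in WT and 102 TPM (98.6 to 106) in *Cd300a-/-* SiglecF hi neutrophils. The 4 intervals were separate, and *Cd300a-/-* SiglecF hi neutrophils were the highest and WT SiglecF lo neutrophils the lowest. The genotype ratio was 0.54 (0.42 to 0.67) in SiglecF lo neutrophils, so that the interval took in the threshold, and 0.27 (0.19 to 0.34) in SiglecF hi neutrophils. The subset ratio was 0.96 in WT and 0.68 in *Cd300a-/-*, and fell to 0.43 and 0.07 when centred, where the latter interval (-0.03 to 0.16) took in 0. *Vegfa* was thus higher in SiglecF hi neutrophils of *Cd300a-/-* mice by little more than the median of all genes counted.

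*Vegfb* encodes a ligand of VEGFR1 with roles in cardiac muscle and lipid uptake, on the minus strand of chromosome 19 between 6959841 and 6965019 (ENSMUSG00000024962). It had 32 and 24 counts in WT and *Cd300a-/-* SiglecF lo neutrophils, or 4.86 TPM (3.33 to 6.86) and 3.31 TPM (2.12 to 4.92). It had 251 and 161 counts in WT and *Cd300a-/-* SiglecF hi neutrophils, or 22.3 TPM (19.7 to 25.3) and 16.0 TPM (13.6 to 18.7). Both SiglecF hi libraries were above both SiglecF lo libraries, and the intervals of the SiglecF lo libraries overlapped. The subset ratio was 1.99 (1.54 to 2.44) in WT and 1.98 (1.49 to 2.47) in *Cd300a-/-*, and was 1.47 and 1.37 when centred. *Vegfb* was not past 0.5 between genotypes in either subset. The genotype ratio was -0.46 (-0.73 to -0.19) in SiglecF hi neutrophils and -0.45 (-1.05 to 0.16) in SiglecF lo neutrophils, where no difference was detectable at this depth. The genes nearest in profile were *Lrp12*, *Hvcn1* and *Igf1*, with RMS differences of 0.01, 0.08 and 0.08. *Igf1*, a growth factor gene, was at 7.94 and 5.65 TPM in WT and *Cd300a-/-* SiglecF lo neutrophils and at 30.2 and 23.0 TPM in SiglecF hi neutrophils.

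*Pgf*, the gene of placental growth factor, another VEGFR1 ligand, was low throughout and is on the minus strand of chromosome 12 between 85213409 and 85224564 (ENSMUSG00000004791). It had 41 counts, or 3.84 TPM (2.75 to 5.20), in WT and 14 counts, or 1.19 TPM (0.65 to 1.99), in *Cd300a-/-* SiglecF lo neutrophils. The SiglecF hi subset had 47 counts, or 2.57 TPM (1.89 to 3.42), in WT and 39 counts, or 2.39 TPM (1.70 to 3.26), in *Cd300a-/-*. Only the *Cd300a-/-* SiglecF lo library stood apart from the WT SiglecF lo library, and all neighbours in the order of levels overlapped. The genotype ratio was -1.14 (-1.68 to -0.61) in SiglecF lo neutrophils and -0.08 (-0.51 to 0.36) in SiglecF hi neutrophils. *Pgf* was therefore opposite in direction to *Prok2*, *Chil1* and *Vegfa* in SiglecF lo neutrophils.

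Within the VEGF family *Vegfa* was the main ligand, with 69.0% and 84.3% of the summed TPM of 5 ligand genes in WT and *Cd300a-/-* SiglecF lo neutrophils and 72.2% and 80.0% in WT and *Cd300a-/-* SiglecF hi neutrophils. The share of *Vegfb* was 7.78% and 4.40% in SiglecF lo and 19.0% and 12.5% in SiglecF hi neutrophils, in the same order of genotypes. *Vegfa* was thus 8.87 and 19.2 times the TPM of *Vegfb* in WT and *Cd300a-/-* SiglecF lo neutrophils and 3.80 and 6.39 times in SiglecF hi neutrophils. In both subsets the *Cd300a-/-* library had the larger share of *Vegfa*. Ligand genes under the mean TPM limit enter these shares. In WT and *Cd300a-/-* SiglecF lo neutrophils *Vegfc* held 14.6% and 9.68%, more than *Vegfb*, and *Pgf* held 6.14% and 1.58%. Of 5 VEGF receptor genes, only those of the neuropilins passed the mean TPM limit. *Nrp1*, the gene of neuropilin-1, was at 38.9 and 25.8 TPM in WT and *Cd300a-/-* SiglecF lo neutrophils and at 88.1 and 68.4 TPM in SiglecF hi neutrophils. Its genotype ratio was -0.57 (-0.73 to -0.41) for the SiglecF lo subset, where the interval took in the threshold, and -0.36 for the SiglecF hi subset. The difference of these ratios, SiglecF hi minus SiglecF lo, was 0.21 (0.03 to 0.39). *Nrp2* was at 6.66 and 6.22 TPM in SiglecF lo and at 17.0 and 12.8 TPM in SiglecF hi neutrophils.

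*Hbegf* encodes heparin-binding EGF-like growth factor, a ligand of the EGF receptor and of ErbB4, and is on the minus strand of chromosome 18 between 36637980 and 36648858 (ENSMUSG00000024486). It had 149 counts, or 12.2 TPM (10.3 to 14.3), in WT and 104 counts, or 7.73 TPM (6.31 to 9.36), in *Cd300a-/-* SiglecF lo neutrophils. The SiglecF hi subset had 197 counts, or 9.45 TPM (8.18 to 10.9), in WT and 268 counts, or 14.4 TPM (12.7 to 16.2), in *Cd300a-/-*. *Cd300a-/-* SiglecF hi neutrophils were the highest and *Cd300a-/-* SiglecF lo neutrophils the lowest, and the intervals of all neighbours in this order overlapped. *Hbegf* was the member with opposite genotype ratios past 0.5, at -0.60 (-0.92 to -0.27) in SiglecF lo and 0.56 (0.31 to 0.80) in SiglecF hi neutrophils. The difference of these ratios, SiglecF hi minus SiglecF lo, was 1.15 (0.75 to 1.56). Its subset ratio was -0.34 in WT (centred -0.86) and 0.82 in *Cd300a-/-* (centred 0.20). *Hbegf* was the highest of 7 EGF receptor ligand genes in each library, from 53.2% to 81.0% of their summed TPM, and the only one over the mean TPM limit. None of the 4 EGF receptor genes passed it.

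*Thbs1* encodes thrombospondin-1, the inhibitor of vessel growth among the secreted factors, and is on the plus strand of chromosome 2 between 117942357 and 117957614 (ENSMUSG00000040152). Its level was 785 TPM (775 to 795) in WT and 1183 TPM (1171 to 1194) in *Cd300a-/-* SiglecF lo neutrophils, from 23578 and 39205 counts. It was at 885 TPM (877 to 893) in WT and 994 TPM (985 to 1003) in *Cd300a-/-* SiglecF hi neutrophils, from 45411 and 45643 counts. The 4 intervals were separate, and *Cd300a-/-* SiglecF lo neutrophils were the highest, at 1.51 times the lowest library, WT SiglecF lo. *Thbs1* stood at rank 201 of all genes by TPM in WT SiglecF lo and at rank 110 in *Cd300a-/-* SiglecF lo neutrophils. The genotype ratio was 0.59 for the SiglecF lo and 0.17 for the SiglecF hi subset. In SiglecF lo neutrophils *Chil1* and *Vegfa* were also past 0.5 higher in *Cd300a-/-*, although the interval of *Vegfa* took in the threshold. The difference of the genotype ratios, SiglecF hi minus SiglecF lo, was -0.42 (-0.45 to -0.39) for *Thbs1*. It was -0.36 (-0.48 to -0.23) for *Chil1* and -0.28 (-0.42 to -0.13) for *Vegfa*. The subset ratio of *Thbs1* was 0.17 in WT and -0.25 in *Cd300a-/-*, but -0.35 and -0.86 when centred, so that its direction in WT depends on the scaling. The ratio of *Thbs1* to *Vegfa* in TPM was 18.2 and 18.7 in WT and *Cd300a-/-* SiglecF lo neutrophils and 10.4 and 9.71 in SiglecF hi neutrophils. The RNA of *Thbs1* against that of *Vegfa* thus differed more between subsets than between genotypes.

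Of the 5 thrombospondin genes, *Thbs1* held from 96.1% to 98.8% of the summed TPM in each library and alone passed the mean TPM limit. The genes of its receptors CD36 and CD47 both passed. *Cd36* was at 114 and 103 TPM in WT and *Cd300a-/-* SiglecF lo neutrophils and at 276 and 237 TPM in SiglecF hi neutrophils, and was therefore a gene of SiglecF hi libraries. *Cd47* ranged from 71.6 to 101 TPM. The nearest profiles to *Thbs1* were those of *Fkbp5*, *Ppp1r12a* and *Smad3*, with RMS differences of 0.01, 0.02 and 0.02. Platelets also hold thrombospondin-1. Of 7 platelet marker genes 1 passed the mean TPM limit, *Pf4*, which was at 345 and 235 TPM in WT and *Cd300a-/-* SiglecF lo neutrophils. In the same order *Ppbp* had 34 and 47 counts, *Itga2b* 26 and 21 counts and *Gp1ba* 13 and 7 counts, while *Gp1bb*, *Treml1* and *Gp9* were at 0 counts. The summed TPM of the platelet list was 354 and 244 in WT and *Cd300a-/-* SiglecF lo neutrophils and 879 and 643 in SiglecF hi neutrophils, and *Pf4* made from 96.2% to 98.6% of it. The part of platelets in the level of *Thbs1* was not tested.

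*Acvrl1* encodes ALK1, a type I receptor for BMP9 and BMP10 that works with endoglin in endothelium, and is on the plus strand of chromosome 15 between 101026403 and 101043217 (ENSMUSG00000000530). Its level was 32.0 TPM (29.6 to 34.5) in WT and 89.0 TPM (85.1 to 92.9) in *Cd300a-/-* SiglecF lo neutrophils, from 658 and 2020 counts. It was at 26.7 TPM (25.0 to 28.5) in WT and 25.9 TPM (24.2 to 27.8) in *Cd300a-/-* SiglecF hi neutrophils, from 938 and 816 counts. The *Cd300a-/-* SiglecF lo library was thus alone in being high, and the intervals of the SiglecF hi libraries overlapped. Of the 6523 genes, 58 had a higher genotype ratio than *Acvrl1* in SiglecF lo neutrophils, where it was 1.45. The difference from its ratio in SiglecF hi neutrophils, SiglecF hi minus SiglecF lo, was -1.49 (-1.67 to -1.31). The subset ratio was -0.25 in WT (centred -0.78) and -1.74 in *Cd300a-/-* (centred -2.35). The nearest profiles were those of *Cpne2*, *Atp11a* and *Rps6ka2*, with RMS differences of 0.09, 0.11 and 0.13.

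The genes around ALK1 lay on either side of *Acvrl1*. *Eng*, which encodes the co-receptor endoglin, was at 48.9 and 24.4 TPM in WT and *Cd300a-/-* SiglecF lo neutrophils and at 42.3 and 45.8 TPM in SiglecF hi neutrophils. It was therefore lowest in the library where *Acvrl1* was highest, and the ratio of *Acvrl1* to *Eng* was 0.65 and 3.65 in WT and *Cd300a-/-* SiglecF lo neutrophils and 0.63 and 0.57 in SiglecF hi neutrophils. The ligand gene *Gdf2*, which encodes BMP9, was at 0 counts in all 4 libraries, and *Bmp10* had 1 and 14 counts in WT and *Cd300a-/-* SiglecF lo neutrophils and 0 in SiglecF hi neutrophils. Of the ID genes, which BMP signals induce, 3 of 4 passed the mean TPM limit. *Id1* was at 162 and 76.7 TPM in WT and *Cd300a-/-* SiglecF lo neutrophils, with a genotype ratio of -1.07 (-1.22 to -0.92), against 0.13 (-0.01 to 0.27) for the SiglecF hi subset. *Id3* was at 164 and 52.5 TPM in WT and *Cd300a-/-* SiglecF lo neutrophils, with a genotype ratio of -1.62 (-1.79 to -1.46), against -0.17 for the SiglecF hi subset. *Id1* and *Id3* were thus opposite in direction to *Acvrl1* in SiglecF lo neutrophils, while *Id2*, at 155 and 148 TPM, had a genotype ratio of -0.06. *Smad4*, the shared transducer of BMP and TGF-β signals, was on the same side as *Acvrl1*, with a genotype ratio of 0.84 in SiglecF lo neutrophils, from 26.2 and 47.7 TPM, against 0.01 for the SiglecF hi subset. The inhibitor gene *Smad7* had ratios of 0.30 and 0.38 in the same order. None of the 3 type II receptor genes of the complex passed the mean TPM limit.

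*Notch1* encodes a receptor that is cleaved on ligand binding and is on the minus strand of chromosome 2 between 26347915 and 26406675 (ENSMUSG00000026923). Its level was 16.1 TPM (15.0 to 17.3) in WT and 38.6 TPM (37.0 to 40.3) in *Cd300a-/-* SiglecF lo neutrophils, from 810.0 and 2139 counts. It was at 20.9 TPM (19.9 to 21.9) in WT and 25.2 TPM (24.1 to 26.4) in *Cd300a-/-* SiglecF hi neutrophils, from 1790.0 and 1935 counts. The intervals were separate, and *Cd300a-/-* SiglecF lo neutrophils were the highest and WT SiglecF lo neutrophils the lowest. Of the 6523 genes, 115 had a higher genotype ratio than *Notch1* in SiglecF lo neutrophils, where it was 1.21. The difference of the genotype ratios, SiglecF hi minus SiglecF lo, was -0.95 (-1.09 to -0.81). The subset ratio was 0.35 in WT, which turned to -0.17 when centred, and -0.60 in *Cd300a-/-* (centred -1.21). The nearest profiles were those of *Ppm1m*, *Ccnl2* and *Npepps*, with RMS differences of 0.04, 0.05 and 0.07.

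Of the 4 Notch receptor genes, *Notch1* and *Notch2* passed the mean TPM limit. *Notch2* was the more abundant, at 48.6 and 90.1 TPM in WT and *Cd300a-/-* SiglecF lo neutrophils and at 42.9 and 54.8 TPM in SiglecF hi neutrophils, and its genotype ratio was 0.88 and 0.35 in the subsets. Both receptor genes were thus highest in *Cd300a-/-* SiglecF lo neutrophils. None of the 5 Notch ligand genes passed the limit. *Furin*, which encodes the protease that matures Notch receptors, was at 62.0 and 118 TPM in WT and *Cd300a-/-* SiglecF lo neutrophils, a genotype ratio of 0.92. Of 11 processing enzyme genes over the limit, 1 was past 0.5 higher in *Cd300a-/-* SiglecF lo neutrophils, where 16.4% of all genes were, and 1 lower, where 19.9% of all genes were, the lower being *Mfng*, a glycosyltransferase gene, with a ratio of -0.54. In the SiglecF hi subset *Mfng* was past 0.5 in the opposite direction, at 0.59, as 1 of 11 genes higher and 0 lower, where 3.31% and 3.46% of all genes were. *Rbpj*, which encodes the DNA-binding partner of cleaved Notch, was at 34.4 and 54.7 TPM in WT and *Cd300a-/-* SiglecF lo neutrophils, a genotype ratio of 0.65. *Numb*, which encodes a Notch inhibitor, had a genotype ratio of 0.59 in SiglecF lo neutrophils. The target gene *Hes1*, alone of 6 target genes over the limit, was at 47.5 and 20.4 TPM in WT and *Cd300a-/-* SiglecF lo neutrophils, a genotype ratio of -1.18 (-1.43 to -0.92), and at 31.6 and 25.1 TPM in SiglecF hi neutrophils. *Notch1* and *Hes1* thus lay on opposite sides in SiglecF lo neutrophils, while *Notch2*, *Furin* and *Rbpj* lay on the side of *Notch1*.

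**Figure D2:**
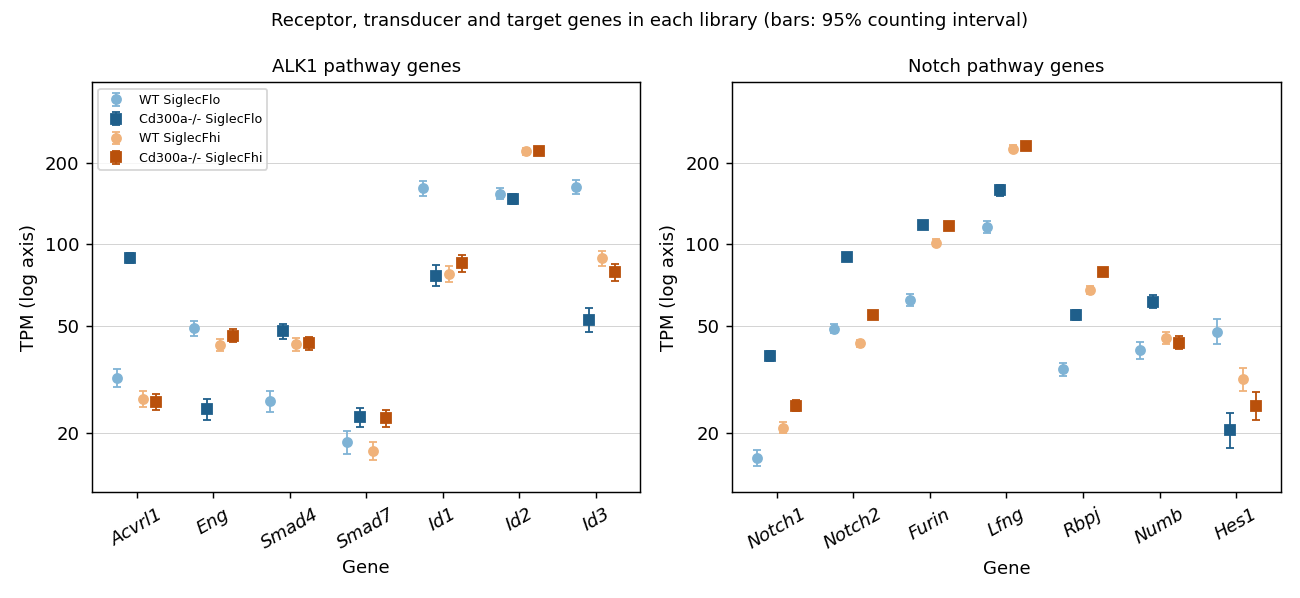
TPM, on a log axis, of genes of the ALK1 pathway (left) and the Notch pathway (right) in each of the 4 libraries, with bars for the 95% counting interval. In *Cd300a-/-* against WT SiglecF lo neutrophils *Acvrl1* goes from 32.0 to 89.0 TPM and *Notch1* from 16.1 to 38.6 TPM, while *Id1* goes from 162 to 76.7 TPM and *Hes1* from 47.5 to 20.4 TPM.

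Endothelial cells carry ALK1, endoglin, Notch receptors and their targets, and markers of these cells moved between the SiglecF lo libraries. Of 12 endothelial marker genes 9 passed the mean TPM limit, and 8 of these were past 0.5 lower in *Cd300a-/-* SiglecF lo neutrophils, where 19.9% of all genes were, with a median ratio of -1.64. In the SiglecF hi subset 3 of the 9 were past 0.5 higher, where 3.31% of all genes were, and 1 was lower, where 3.46% were, with a median ratio of 0.38. Of the 9, *Cldn5*, *Plvap* and *Emcn* passed the limit only through the WT SiglecF lo library, so their difference was in part set by the limit. The summed TPM of all 12 genes was 258 in WT and 90.3 in *Cd300a-/-* SiglecF lo neutrophils and 126 and 153 in SiglecF hi neutrophils. *Pecam1* was the most abundant of them in each library, and none was at 0. The endothelial list was therefore lowest where *Acvrl1* and *Notch1* were highest and where *Eng*, *Id1*, *Id3*, *Hes1* and *Pgf* were lowest. However, *Id1* was at 76.7 TPM there against 77.8 TPM in WT SiglecF hi neutrophils, and the interval of *Pgf* overlapped those of the SiglecF hi libraries. The part of endothelial cells in the lower levels of these genes was not tested.

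In *Cd300a-/-* against WT SiglecF lo neutrophils, 6 of the 8 genes over the mean TPM limit were past 0.5 higher, where 16.4% of all genes were, and 1, *Hbegf*, was lower, where 19.9% of all genes were. With TPM over 10 required in both libraries, *Hbegf* was not counted, and 6 of 6 were higher and 0 lower. Of all 5078 genes under that limit, 684 were higher and 832 lower. Nothing is read from these counts, since this contrast was in view when the genes were chosen. Of the 6 genes, *Vegfa*, *Thbs1* and *Chil1* lay between 0.54 and 0.67, near the threshold, and *Notch1*, *Acvrl1* and *Prok2* lay above 1. The median of the 8 genes was 0.63. In SiglecF hi neutrophils, 2 of the 8 genes, *Prok2* and *Hbegf*, were past 0.5 higher, where 3.31% of all genes were, and none was past 0.5 lower, where 3.46% of all genes were. With TPM over 10 required in both libraries, neither gene was counted and 0 of 6 were past 0.5. Of all 6794 genes under that limit, 173 were higher and 194 lower. The median of the 8 was 0.26. At a threshold of 1, *Prok2*, *Acvrl1* and *Notch1* were past it in SiglecF lo neutrophils, and *Prok2* in SiglecF hi neutrophils. Of all 6523 genes, 219 were past 1 higher and 392 lower in SiglecF lo neutrophils, and 24 higher and 22 lower in SiglecF hi neutrophils.

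**Figure D3:**
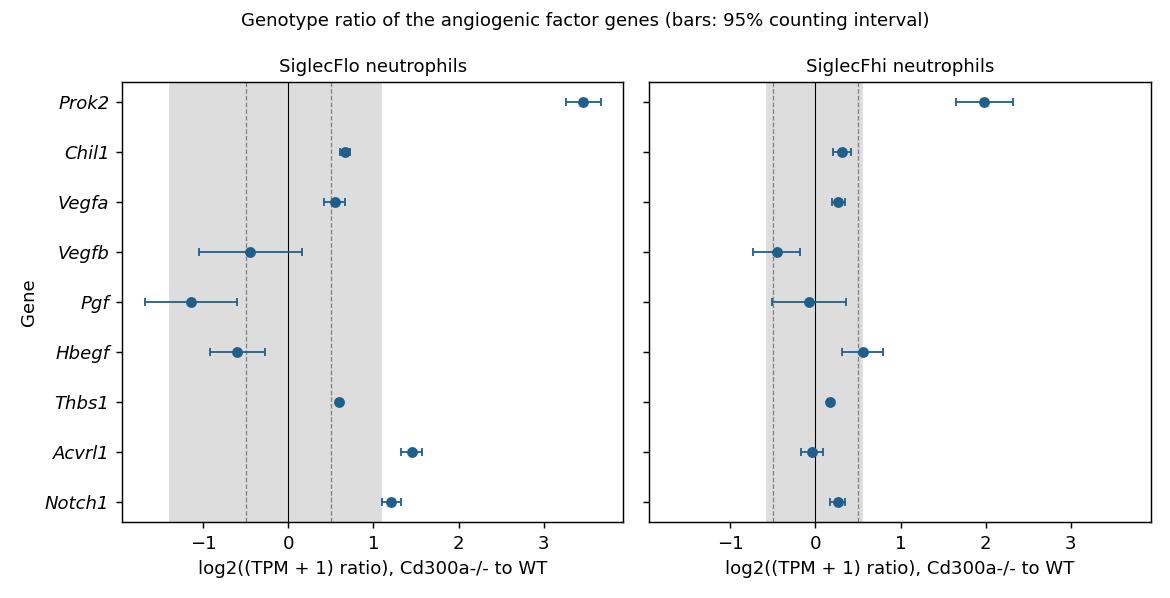
log2((TPM + 1) ratio) of *Cd300a-/-* to WT for the 9 genes in SiglecF lo (left) and SiglecF hi (right) neutrophils, with bars for the 95% counting interval, dashed lines at 0.5 in each direction and a grey band for the central 95% of all genes counted. *Prok2* lies beyond the band in both subsets, at 3.46 and 1.99, *Acvrl1* and *Notch1* only in SiglecF lo neutrophils, and *Hbegf* just beyond its edge in SiglecF hi neutrophils.

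In WT neutrophils 2 of the 8 genes were past 0.5 higher in SiglecF hi neutrophils, where 51.9% of all genes were, and 2 were lower, where 7.47% of all genes were. Centred on the median, 1 gene, *Vegfb*, was higher, where 19.3% of all genes were, and 4 genes, *Prok2*, *Chil1*, *Hbegf* and *Acvrl1*, were lower, where 20.9% of all genes were. In *Cd300a-/-* neutrophils 3 genes were higher, where 56.6% of all genes were, and 4 were lower, where 7.97% of all genes were. Centred, 1 gene was higher, where 21.2% of all genes were, and 5 genes, *Prok2*, *Chil1*, *Thbs1*, *Acvrl1* and *Notch1*, were lower, where 23.6% of all genes were. When centred, the higher gene was *Vegfb* in both genotypes, which passed the mean TPM limit only through the SiglecF hi libraries and is not counted in either genotype with TPM over 10 in both libraries. *Prok2* and *Chil1* were past 0.5 on the SiglecF lo side under both scalings in both genotypes. The subset comparisons share libraries with the genotype comparisons, so a high *Cd300a-/-* SiglecF lo library enters both.

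The 9 genes peaked in different libraries. *Prok2*, *Chil1*, *Thbs1*, *Acvrl1* and *Notch1* were highest in *Cd300a-/-* SiglecF lo neutrophils, where 14.1% of all genes counted were highest. *Vegfa* and *Hbegf* were highest in *Cd300a-/-* SiglecF hi neutrophils, where 42.3% of all genes were highest. *Vegfb* was highest in WT SiglecF hi neutrophils, where 35.2% were, and *Pgf* in WT SiglecF lo neutrophils, where 8.36% were. *Pgf* itself is not among the genes counted for these shares. Nothing is read from where the 9 genes peaked, since they were chosen with values of these libraries in view.

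Genes related to these factors are given by list. Of 16 other angiogenic growth factor genes 5 passed the mean TPM limit, and none was past 0.5 in either direction between genotypes in either subset. Of all genes, 16.4% were higher and 19.9% lower in the SiglecF lo comparison, and 3.31% higher and 3.46% lower in the SiglecF hi comparison. *Osm*, the gene of oncostatin M, was the most abundant of them, at 161 and 165 TPM in WT and *Cd300a-/-* SiglecF lo neutrophils and at 127 and 156 TPM in SiglecF hi neutrophils. Of 8 other inhibitor genes 5 passed, and in SiglecF lo neutrophils 1 was past 0.5 higher in *Cd300a-/-*, *Spry2*, with a ratio of 1.23, where 16.4% of all genes were higher, and 3 were lower, where 19.9% of all genes were. The lower ones were *Adamts1*, *Timp3* and *Pf4*, with ratios of -0.78, -0.57 and -0.55. In SiglecF hi neutrophils 1 of the 5 was past 0.5 lower, *Serpinf1*, which encodes pigment epithelium-derived factor, with a ratio of -0.58, where 3.46% of all genes were lower.

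Hypoxia raises *Vegfa* in many cells, and genes of the hypoxia response were listed beside it. Of 14 genes 13 passed the mean TPM limit, and in SiglecF lo neutrophils 2 of them, *Ero1a* and *Slc2a1*, were past 0.5 higher in *Cd300a-/-*, where 16.4% of all genes were, with ratios of 0.70 and 0.61, and 1, *Vhl*, was lower, where 19.9% of all genes were, with a ratio of -0.54. The median of the list was 0.21. None was past 0.5 in the SiglecF hi subset, where 3.31% of all genes were higher and 3.46% lower, and the median was 0.10. *Hif1a*, which encodes the oxygen-regulated subunit of the factor, was at 125 and 157 TPM in WT and *Cd300a-/-* SiglecF lo neutrophils and at 93.6 and 106 TPM in SiglecF hi neutrophils. *Hif1a* was thus higher in SiglecF lo neutrophils, unlike *Vegfa*.

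G-CSF acts through STAT3 in neutrophils and is known to raise *Prok2* in myeloid cells. Of 7 genes of the G-CSF receptor and STAT3 pathway 6 passed the mean TPM limit, and in SiglecF lo neutrophils 2 of them, *Jak2* and *Stat3*, were past 0.5 higher in *Cd300a-/-*, where 16.4% of all genes were, with ratios of 0.71 and 0.51 (0.44 to 0.57), so that the interval of *Stat3* took in the threshold. None was past 0.5 lower there, where 19.9% of all genes were, and none was past 0.5 in the SiglecF hi subset, where 3.31% of all genes were higher and 3.46% lower. The median ratio was 0.30 for the SiglecF lo and 0.13 for the SiglecF hi subset. The receptor gene *Csf3r* had a ratio of 0.28, and *Socs3*, a target of STAT3, had a ratio of 0.01 for the SiglecF lo and 0.20 for the SiglecF hi subset. The part of this pathway in the level of *Prok2* was not tested in these libraries. In cultured bone marrow neutrophils, the paper reports that G-CSF, but not IL-6, raised STAT3 phosphorylation and *Prok2* in *Cd300a-/-* cells. A STAT3 inhibitor brought *Prok2* there to a level comparable to WT.

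Markers of other cells were measured in all libraries. The 9 neutrophil markers summed to 155316 and 203909 TPM in WT and *Cd300a-/-* SiglecF lo neutrophils and to 28414 and 33470 TPM in SiglecF hi neutrophils. Of this sum *S100a9* made from 43.8% to 49.1% and *S100a8* from 36.5% to 41.0% in each library. Of the 9 markers, 5 in WT and 7 in *Cd300a-/-* mice were past 0.5 lower in SiglecF hi neutrophils as computed. Of all genes, 7.47% and 7.97% were. *Itgam* and *Ptprc* are also on this list, with the levels given above. Macrophage markers, 10 of 10 over the limit, summed to 2865 and 2706 TPM in WT and *Cd300a-/-* SiglecF lo neutrophils and to 7029 and 6362 TPM in SiglecF hi neutrophils, led by *C1qb* except in *Cd300a-/-* SiglecF lo neutrophils, where *C1qa* led. Fibroblast markers, led by *Dcn*, summed to 964 and 979.8 TPM in SiglecF lo neutrophils and to 2088 and 1475 TPM in SiglecF hi neutrophils. By TPM both lists were higher in the SiglecF hi libraries, as were *Vegfa* and *Vegfb*. Centred, the median subset ratio of the macrophage list was 0.75 in WT and 0.38 in *Cd300a-/-*, and that of the fibroblast list 0.59 in WT and -0.05 in *Cd300a-/-*, so that the direction of the latter depends on the scaling. The part of these cells in the levels of *Vegfa* and *Vegfb* was not tested. Eosinophils carry SiglecF. Their gene *Epx* was at 0 counts in all 4 libraries and *Prg2* in all but WT SiglecF hi neutrophils, where it had 2 counts. The eosinophil list summed to 173 and 87.9 TPM in SiglecF lo and to 117 and 119 TPM in SiglecF hi neutrophils. *Ear2* alone made from 94.0% to 98.8% of this sum in each library. The part of eosinophils in these libraries was not tested. Cardiomyocyte markers summed to 41.3 and 25.0 TPM in SiglecF lo and to 45.6 and 62.6 TPM in SiglecF hi neutrophils.

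**Figure D4:**
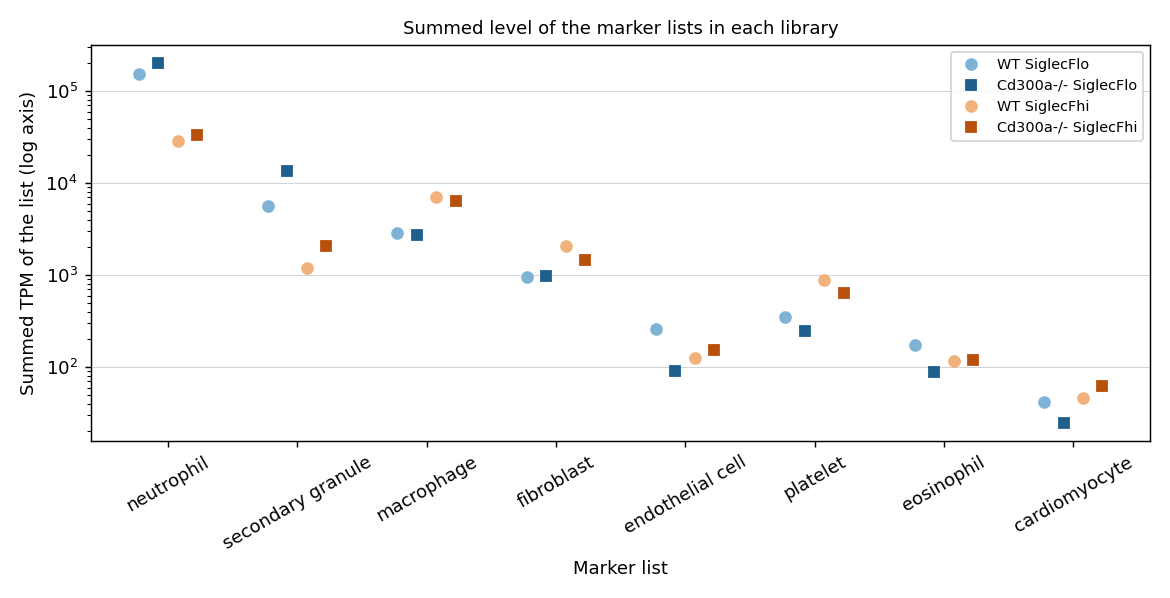
Summed TPM, on a log axis, of 8 marker lists in each of the 4 libraries, 1 point per library. The endothelial list is lowest in *Cd300a-/-* SiglecF lo neutrophils, at 90.3 TPM against 258 TPM in WT, and the secondary granule list is highest there, at 13396 TPM.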

How the data were processed

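RNA was measured in 4 libraries of sorted cardiac neutrophils, 1 per genotype and subset, each from 8 pooled hearts on day 3 after MI/R. The deposited counts are whole numbers per gene, and whether they are reads or pairs is not given in the sources used here. The deposited RPKM was made by the authors by gene length and library size and was not used. The deposited TPM, made by the authors in CLC Genomics Workbench 20.0 per the methods, is per length and has the same sum in every library. The deposited CPM is a signal that the authors multiplied by 1 factor per library, and it was not used. The build is GRCm39 per the submitters' processing notes, and the aligner settings, annotation release and strand setting are not given in the sources used here.

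Ratios were log2((TPM + 1) ratio), with genes of mean TPM over 10 counted, 6523 of 25655, and a threshold of 0.5. Counting intervals were exact Poisson intervals for levels and delta-method intervals for ratios. Alternatives were a pseudocount of 0.1, a mean TPM over 1, TPM over 10 in both libraries compared, a threshold of 1, ratios centred on the median, and CPM with TMM factors of edgeR 4.0.16 in R 4.3.3. No test between conditions was made, since each group is 1 library. The rest ran in Python 3.11.15 with numpy 2.4.6, pandas 2.3.3, scipy 1.17.1 and matplotlib 3.10.9, and the interval code was checked on simulated data. The 9 genes and the lists of related genes and markers, 32 lists with 203 genes, were chosen with earlier results of these data known. Genes outside the 9 are named as members of these lists, as nearest profiles or as checks of the labels. A level in TPM is given only for those over the mean TPM limit, and not for all of them.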

Additional observations from a re-analysis of the deposited data

Results flagged for a closer look

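These results stand here because a difference between groups changed direction, and none of the differences was tested. The ratio of SiglecF hi to SiglecF lo neutrophils of *Pgf* was -0.44 (-0.90 to 0.02) in WT and 0.63 in *Cd300a-/-* mice, from at most 47 counts, and centred it was -0.96 and 0.02 (-0.50 to 0.54). That of *Hbegf* was -0.34 in WT and 0.82 in *Cd300a-/-* mice, and centred it was -0.86 and 0.20 (-0.09 to 0.50). The genotype ratio of *Hbegf* changed direction between subsets, and the difference, SiglecF hi minus SiglecF lo, was 1.15. *Thbs1* had a subset ratio of 0.17 in WT and -0.25 in *Cd300a-/-* mice as computed, and centred on the median it was negative in both. The genotype ratio of *Acvrl1* also had opposite signs, with a difference of -1.49, but its interval in SiglecF hi neutrophils took in 0. *Notch1* had a subset ratio of 0.35 in WT and -0.60 in *Cd300a-/-* mice as computed, and centred it was negative in both.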

How the results depend on the processing

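Of 135 values of the 9 genes under another processing, 0 that were past 0.5 changed sign. With a pseudocount of 0.1 all 45 stayed within their counting interval, with TMM scaling 27 did and 18 moved beyond it, and centred on the median 25 did and 20 moved beyond it. Of the 36 ratios, 2 came to another side of 0.5 with a pseudocount of 0.1, namely *Vegfb* between genotypes in SiglecF lo neutrophils (-0.54) and *Pgf* between subsets in WT (-0.56), and 8 did with TMM scaling and 8 when centred, all between subsets. Centring subtracts a median of 0.53 and 0.61 between subsets, against -0.02 and 0.04 between genotypes. The TMM factors were 0.91 and 0.87 for the WT and *Cd300a-/-* SiglecF lo libraries and 1.13 and 1.12 for the SiglecF hi libraries. Why the medians differ between subsets was not tested. Below 0.5, *Thbs1* and *Notch1* changed sign between subsets in WT under both scalings. The difference of the genotype ratios of *Vegfb* went from -0.01 to 0.06 with a pseudocount of 0.1. Counts of the 9 genes and of all genes past the threshold moved with the TPM limit and with the threshold. Between genotypes in SiglecF lo neutrophils, 7 of the 8 genes became 3 at a threshold of 1, and 2367 of all genes became 5178 of 11472 with a mean TPM over 1, 1516 of 5078 with TPM over 10 in both libraries, and 611 at a threshold of 1. For the SiglecF hi subset 2 of the 8 became 1 at a threshold of 1. With TPM over 10 in both libraries they became 0, since *Prok2* and *Hbegf* were then not counted. Of all genes, 442 became 367 of 6794 with this limit, 1716 with a mean TPM over 1 and 46 at a threshold of 1. Between subsets in WT, 4 of the 8 genes became 2 of 5 with TPM over 10 in both libraries. Among all genes, 3873 became 2866 of 5438 with this limit, 7317 with a mean TPM over 1 and 1520.0 at a threshold of 1. In *Cd300a-/-* mice 7 of the 8 genes became 4 at a threshold of 1, and 4212 of all genes became 7619 with a mean TPM over 1 and 1975 at a threshold of 1. The split of all genes past 0.5 depended on the scaling between subsets. In WT 3386 were higher and 487 lower in SiglecF hi neutrophils as computed, 1259 and 1363 when centred, and 1309 and 1371 with TMM. In *Cd300a-/-* mice 3692 were higher and 520.0 lower as computed, 1382 and 1540.0 when centred, and 1580.0 and 1427 with TMM.

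Each group is 1 library of pooled hearts, so differences between mice, sorts and preparations cannot be separated from those of genotype or subset. *Pgf* and, in SiglecF lo neutrophils, *Vegfb* rest on few counts. RNA levels do not give the secreted or surface protein. The sorted cells held RNA of other cell types, and the mice lacked *Cd300a* in every cell. The SiglecF lo libraries had fewer counts than the SiglecF hi libraries.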
